A study of Sus scrofa with 15 samples.

Results

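Methylation of lysine 9 on histone H3 (H3K9) marks silent chromatin and is set, removed and read by separate proteins. The 10 genes described here are 4 demethylases, 5 methyltransferases and 1 corepressor, chosen by gene symbol, and 9 of the 10 had an entry among the 43294 features of the table. They were followed in pig embryos made by somatic cell nuclear transfer (SCNT), in which the nucleus of a cultured cell is placed into an enucleated oocyte. The question was how the H3K9 machinery stood in donor cells and cloned embryos, and how it differed after a combined treatment in which one of its own members, KDM4A, had been injected.

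RNA-seq libraries came from 5 groups of 3. PFF were primary pig fetal fibroblasts, the donor cells. SCNT4c and SCNT8c were untreated 4-cell and 8-cell SCNT embryos, and in all 4 embryo groups each library was a pool of 30 embryos. SCNT4c-KG were 4-cell embryos injected with KDM4A mRNA (1000 ng/µl, 5 h after activation) and kept from 0 to 48 h with 0.1 µM GSK126, which inhibits EZH2, the enzyme that methylates H3K27. SCNT4c-TDG were 4-cell embryos cloned from fibroblasts that carried a doxycycline-inducible vector for TDG, a glycosylase of DNA demethylation, with 500 ng/ml doxycycline from 40 to 72 h. The vector carriers were a puromycin-selected pool, and no library of doxycycline alone or of uninduced carriers was analysed here. Likewise no library of KDM4A alone, of GSK126 alone or of a mock injection was analysed, so their parts in SCNT4c-KG cannot be told apart. RNA of fibroblasts and of embryos was extracted with different reagents, which cannot be told apart from the change of material. Values are normalized read counts, which are reads divided by 1 factor per library. The 3 libraries of SCNT4c are called a, b and c because the labels number them in more than one way.

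In the textbook picture, SUV39H1 and SUV39H2 place trimethyl groups on H3K9 in heterochromatin, SETDB1 does so at transposable elements to which TRIM28 brings it, and the pair EHMT1 (GLP) and EHMT2 (G9a) place mono- and dimethyl groups on euchromatic genes. KDM4A, KDM4B and KDM4C are Jumonji demethylases that take off the tri- and dimethyl marks, and KDM3A takes off the di- and monomethyl marks. The heterochromatin proteins CBX1, CBX3 and CBX5 bind the methylated tail. H3K9 methylation inherited from the donor nucleus is known as an obstacle to activation of the embryonic genome in cloned embryos, and KDM4 demethylases have been used to remove it.

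Sequencing depth was 12354649 to 22868038 whole reads assigned to features per library, and the SCNT4c-KG libraries were the shallowest with 12354649 to 15390472. The labelled material was checked with marker lists. Of 11 fibroblast markers in the table, all 11 had reads in every PFF library, with a summed normalized count of 3952800 to 4197070 against 1818 to 5698 in the embryos. The 12 oocyte markers summed to 16.6 to 26.2 in PFF, 281826 to 329597 in SCNT4c, 111089 to 200403 in SCNT4c-KG and 35531 to 39958 in SCNT4c-TDG, with GDF9, BMP15 and MOS listed at 0 in all 15 libraries. The 7 cumulus markers in the table summed to 276 to 489 in SCNT4c-KG, above the 92.6 to 271 in SCNT4c and the 75.2 to 129 in SCNT4c-TDG, with 3, 2 and 2 of the 7 listed at 0 in these groups. In SCNT8c the oocyte sum was 99687 and 64596 in replicates 1 and 2 and 235118 in replicate 3, a library whose log2 values correlated at 0.859 with SCNT4c and at 0.772 with the other SCNT8c libraries. Mitochondrial genes took 8.26% to 9.42% of reads in SCNT4c-TDG and 0.81% to 2.47% elsewhere. The part of these differences in the results below was not tested, and in pooled embryos a fall in a transcript can come from fewer expressing cells or from less RNA in each, which cannot be told apart. TDG itself, the induced gene, was 1659.5, 939 and 2541 in SCNT4c and 56925, 59944 and 49857 in SCNT4c-TDG. It was also higher in SCNT4c-KG, at 4474, 3886 and 4738, by 1.46 (SE 0.31, adjusted p = 0.00195).

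Differences between embryo groups were tested with limma over the 12 embryo libraries and those against PFF over 6 libraries. A gene is called changed where the fold was above 2 and the adjusted p under 0.05. All log2 differences are on the log2(value + 1) scale, and p-values measure the spread between these libraries only. Values after ± are SDs over 3 libraries. Of the 10 genes, 6 passed the mean of 10 needed for the test among embryos, namely KDM4A, KDM4B, KDM4C, KDM3A, SUV39H1 and SUV39H2. SCNT4c served as the control of 3 of the comparisons, so their values are given side by side.

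**Figure D1:**
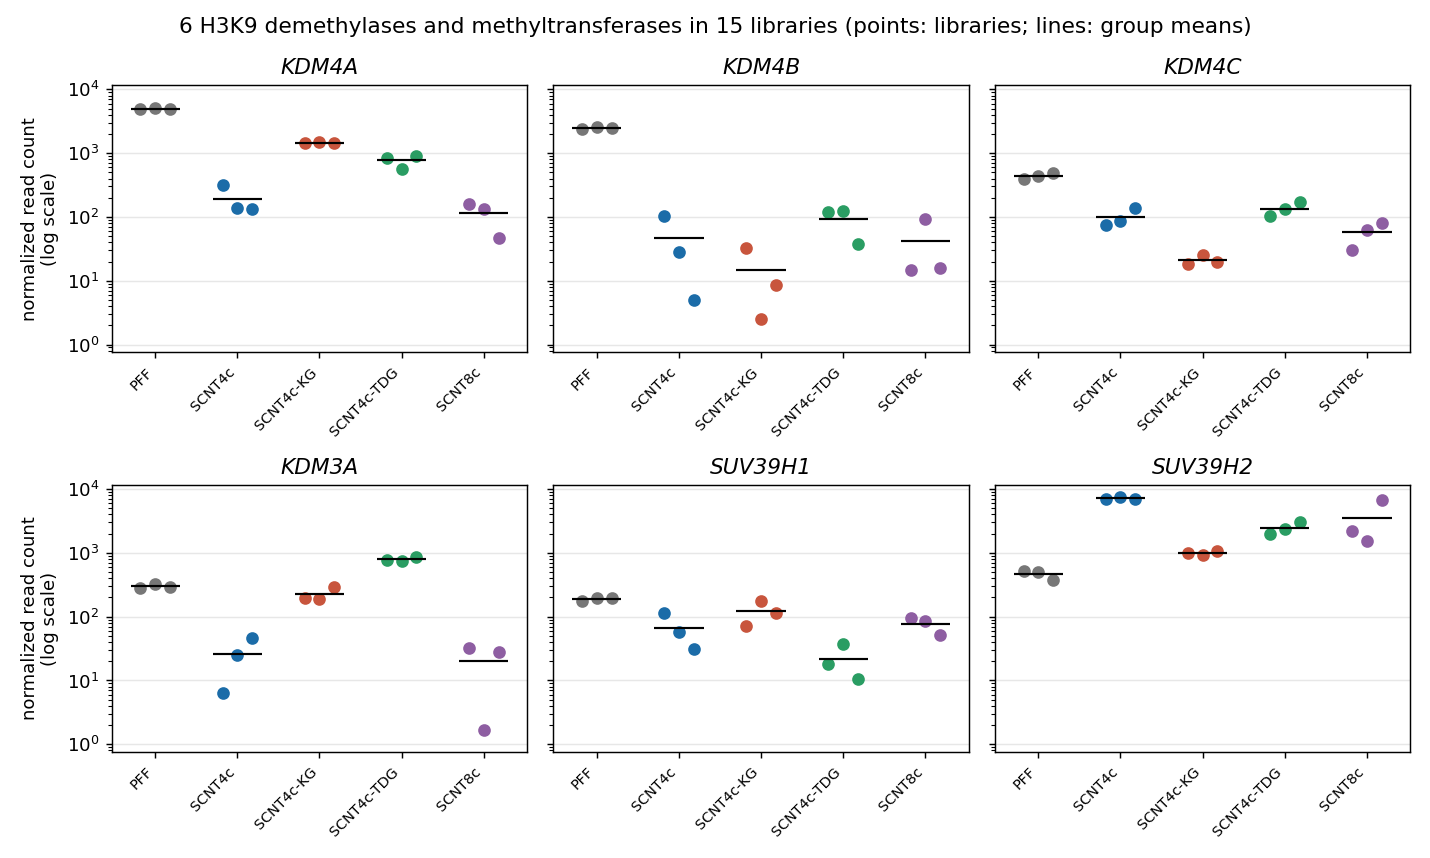
Normalized read counts (log scale) of 6 H3K9 demethylases and methyltransferases in the 15 libraries, with 1 point per library and a line at the mean of each group of 3. SUV39H2 was highest in SCNT4c, KDM4A and KDM4B were highest in PFF, KDM3A was highest in SCNT4c-TDG, and the third SCNT8c point for SUV39H2 lay beside SCNT4c.

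KDM4A and KDM3A rose and SUV39H2 fell in both treated groups. Their upstream sequences are printed because these were the members that changed in both, and comprise the 300 bases before the annotated 5′ end in the pig assembly Sscrofa11.1, 5′ to 3′ along the gene. Capitals mark CCAAT (known from the NF-Y binding site), GGGCGG (the GC box) and ACGTG (the core of the hypoxia response element), each searched on both strands.
KDM4A, chr6:167642382-167642681, minus strand: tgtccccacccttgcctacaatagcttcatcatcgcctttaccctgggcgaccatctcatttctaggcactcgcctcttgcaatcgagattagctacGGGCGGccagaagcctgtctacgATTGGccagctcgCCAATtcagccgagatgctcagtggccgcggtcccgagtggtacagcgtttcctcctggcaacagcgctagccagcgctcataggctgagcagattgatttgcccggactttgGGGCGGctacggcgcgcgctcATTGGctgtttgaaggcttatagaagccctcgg
KDM3A, chr3:58355001-58355300, minus strand: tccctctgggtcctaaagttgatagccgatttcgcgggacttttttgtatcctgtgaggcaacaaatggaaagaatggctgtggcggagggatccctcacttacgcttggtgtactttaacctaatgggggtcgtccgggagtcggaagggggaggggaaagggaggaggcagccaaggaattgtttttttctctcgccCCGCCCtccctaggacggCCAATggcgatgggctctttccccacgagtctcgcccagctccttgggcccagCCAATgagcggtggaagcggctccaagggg
SUV39H2, chr10:46900059-46900358, minus strand: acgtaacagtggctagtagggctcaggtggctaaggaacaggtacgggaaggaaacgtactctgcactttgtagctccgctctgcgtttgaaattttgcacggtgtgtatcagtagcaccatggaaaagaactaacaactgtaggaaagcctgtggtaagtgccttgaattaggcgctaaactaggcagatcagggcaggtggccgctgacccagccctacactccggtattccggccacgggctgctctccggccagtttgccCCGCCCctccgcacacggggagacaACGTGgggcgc
The KDM4A window held 3 CCAAT matches and the KDM3A window 2, while that of SUV39H2 held 0. The windows of the other members tested among embryos held 4 (KDM4B), 1 (SUV39H1) and 0 (KDM4C). GGGCGG was found 2 times before KDM4A and 1 time each before KDM3A and SUV39H2. At least 1 CCAAT match was present in 35.9% of 19556 windows of the same length before protein-coding genes, GGGCGG in 47.6% and ACGTG in 21.7%. ACGTG was found 1 time before SUV39H2 and 0 times before KDM4A or KDM3A. The windows held 22, 16 and 17 CpG dinucleotides for KDM4A, KDM3A and SUV39H2, against a median of 13 over all windows. These matches describe the letters only.

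KDM4A (chr6:167597954-167642381, minus strand, the only entry at its locus) removes tri- and dimethylation of H3K9 and was the injected mRNA in SCNT4c-KG. Its normalized read count was 4932, 5150.4 and 4933 in PFF. In SCNT4c it was 313, 136 and 134 (libraries a, b and c), and library a stood above the other two. The injected embryos had 1437, 1476 and 1429, a narrow band of 1448 ± 24.9 (mean ± SD, n = 3). Reads of injected and endogenous KDM4A cannot be told apart here. SCNT4c-TDG, which received no KDM4A mRNA, had 852, 555 and 918, and SCNT8c had 162, 134 and 47.5. No library of SCNT4c-KG or SCNT4c-TDG overlapped SCNT4c, whereas SCNT8c and SCNT4c overlapped.

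KDM4A was thus 7.45 times as high in SCNT4c-KG as in SCNT4c by the group means, a log2 difference of 3.01 (SE 0.48, adjusted p = 0.00022). In SCNT4c-TDG it was 3.99 times as high, a log2 difference of 2.08 (SE 0.48, adjusted p = 0.00375). The difference between SCNT4c-TDG and SCNT4c-KG was -0.93 (SE 0.48, adjusted p = 0.204, 95% interval -1.95 to 0.08) and did not pass, although the groups did not overlap. The level after injection was still below the donor cells, in which the mean was 3.46 times that of SCNT4c-KG. From PFF to SCNT4c, KDM4A fell by 4.80 on the log2 scale (SE 0.35, adjusted p = 3.35e-05).

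Of the 6 genes tested, 4 changed between SCNT4c-KG and SCNT4c, where 37.2% of all tested features did, and 3 changed between SCNT4c-TDG and SCNT4c, where 33.3% did. The 4 include KDM4A, which was injected in SCNT4c-KG and so is no independent result about the members, and 3 of the other 5 changed. In SCNT4c-KG, KDM4A and KDM3A were higher (17.6% of all features) and KDM4C and SUV39H2 lower (19.6%). In SCNT4c-TDG, KDM4A and KDM3A were higher (15.7%) and SUV39H2 lower (17.6%). The groups did not overlap for 4 of 6 genes, the injected KDM4A among them, in the first comparison (53.9% of all features) and for 3 of 6 in the second (58.4%). The median log2 difference over the 6 genes, KDM4A included, was -0.20 and 1.06, against -0.30 and -0.26 over all features. In order of size, the other 5 genes in SCNT4c-KG differed by -2.85 (SUV39H2), -2.15 (KDM4C), -1.34 (KDM4B), 0.93 (SUV39H1) and 3.41 (KDM3A).

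**Figure D2:**
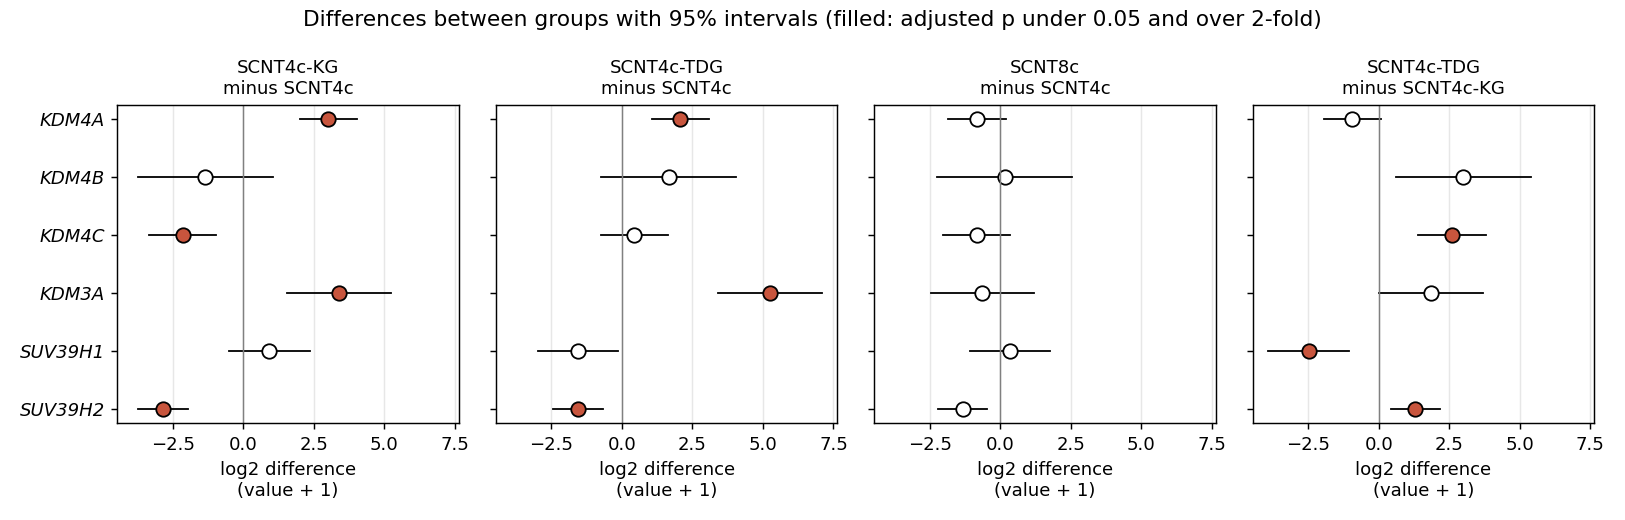
Log2 differences of normalized read count + 1 for 6 genes in 4 comparisons of embryo groups (3 libraries each), with 95% intervals from limma and filled points where a gene was called changed. KDM4A and KDM3A lie to the right and SUV39H2 to the left in both treated groups against SCNT4c, and no point is filled for SCNT8c.

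KDM3A (chr3:58300109-58355000, minus strand), a demethylase of the mono- and dimethyl marks, was scarce in untreated embryos and present in both treated groups. It had normalized read counts of 6.31, 25.3 and 46.5 in SCNT4c and 31.7, 1.66 and 27.5 in SCNT8c, values that rest on 2 to 56 reads per library. SCNT4c-KG had 194, 192 and 288, close to the 282, 325 and 291 of the fibroblasts, with which it overlapped. SCNT4c-TDG had 786, 749 and 849, above every library of every other group.

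The log2 difference of KDM3A against SCNT4c was 3.41 (SE 0.86, adjusted p = 0.00647) in SCNT4c-KG and 5.25 (SE 0.86, adjusted p = 0.000314) in SCNT4c-TDG. The group means differed 8.62-fold and 30.5-fold. With 1 library left out, the log2 differences ran from 2.65 to 4.00 in SCNT4c-KG and from 4.49 to 5.84 in SCNT4c-TDG. Between SCNT4c-TDG and SCNT4c-KG the difference was 1.84 (SE 0.86, adjusted p = 0.165, 95% interval 0.00 to 3.68), and it passed the threshold when only the libraries of these groups were fitted (adjusted p = 0.000349). An assembled transcript without a gene name at the same locus moved alongside, at 30.0 ± 12.1 in SCNT4c, 162 ± 64.1 in SCNT4c-KG and 238 ± 32.1 in SCNT4c-TDG. Summed with it, KDM3A differed from SCNT4c by 2.81 (adjusted p = 0.00013) in SCNT4c-KG and by 4.24 (adjusted p = 3.67e-06) in SCNT4c-TDG.

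KDM4C (chr1:215071335-215507778, minus strand), another demethylase of the trimethyl mark, was lower in SCNT4c-KG as a gene entry, but not when its whole locus was counted. Its normalized read count was 75.7, 85.6 and 137 in SCNT4c, 18.0, 25.4 and 19.9 in SCNT4c-KG and 103, 131 and 168 in SCNT4c-TDG. The SCNT4c-KG values rest on 11 to 20 reads per library and lay below every other library in the series. The log2 difference from SCNT4c was -2.15 (SE 0.56, adjusted p = 0.00775) in SCNT4c-KG and 0.45 (SE 0.56, adjusted p = 0.567, 95% interval -0.75 to 1.64) in SCNT4c-TDG, where it did not pass. SCNT4c-TDG exceeded SCNT4c-KG by 2.60 (SE 0.56, adjusted p = 0.0057), and by 1.58 with the whole locus counted.

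The KDM4C locus also held 2 assembled transcripts, and the result depended on them. The more abundant one had 40.2, 35.0 and 42.3 in SCNT4c, 34.3, 164 and 139.6 in SCNT4c-KG, 266, 307 and 181 in SCNT4c-TDG and 255, 259 and 114 in SCNT8c. With both added, the locus stood at 139 ± 36.8 in SCNT4c and 148 ± 74.2 in SCNT4c-KG, and the difference was -0.03 (adjusted p = 0.962). The summed locus in SCNT4c-TDG was 402 ± 46.3 and was called higher than SCNT4c, by 1.54 (adjusted p = 0.018). Whether these transcripts are on the strand of KDM4C is not stated in the sources used here, and the fall was seen in the gene entry and not in the summed locus.

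KDM4B (chr2:73746379-73889881, minus strand) was an abundant demethylase of the fibroblasts, at 2422, 2571 and 2485, and scattered at low level in every embryo group. SCNT4c had 105, 28.0 and 4.98, SCNT4c-KG had 32.7, 2.54 and 8.55, SCNT4c-TDG had 121, 122 and 38.3 and SCNT8c had 14.9, 93.1 and 15.8. With 2 to 159 reads per embryo library, none of the comparisons among embryos passed. The difference from SCNT4c was -1.34 (SE 1.12, adjusted p = 0.361, 95% interval -3.73 to 1.05) in SCNT4c-KG and 1.67 (SE 1.12, adjusted p = 0.265, 95% interval -0.72 to 4.06) in SCNT4c-TDG. Between SCNT4c-TDG and SCNT4c-KG it was 3.01 (SE 1.12, adjusted p = 0.0816), and 3.01 (adjusted p = 0.0193) in a fit of those groups alone. An assembled transcript at this locus had 52.1, 15.7 and 58.9 in SCNT4c and at most 3.07 in SCNT4c-KG and SCNT4c-TDG, and with it the fall in SCNT4c-KG was called, at -2.82 (adjusted p = 0.0192).

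**Figure D3:**
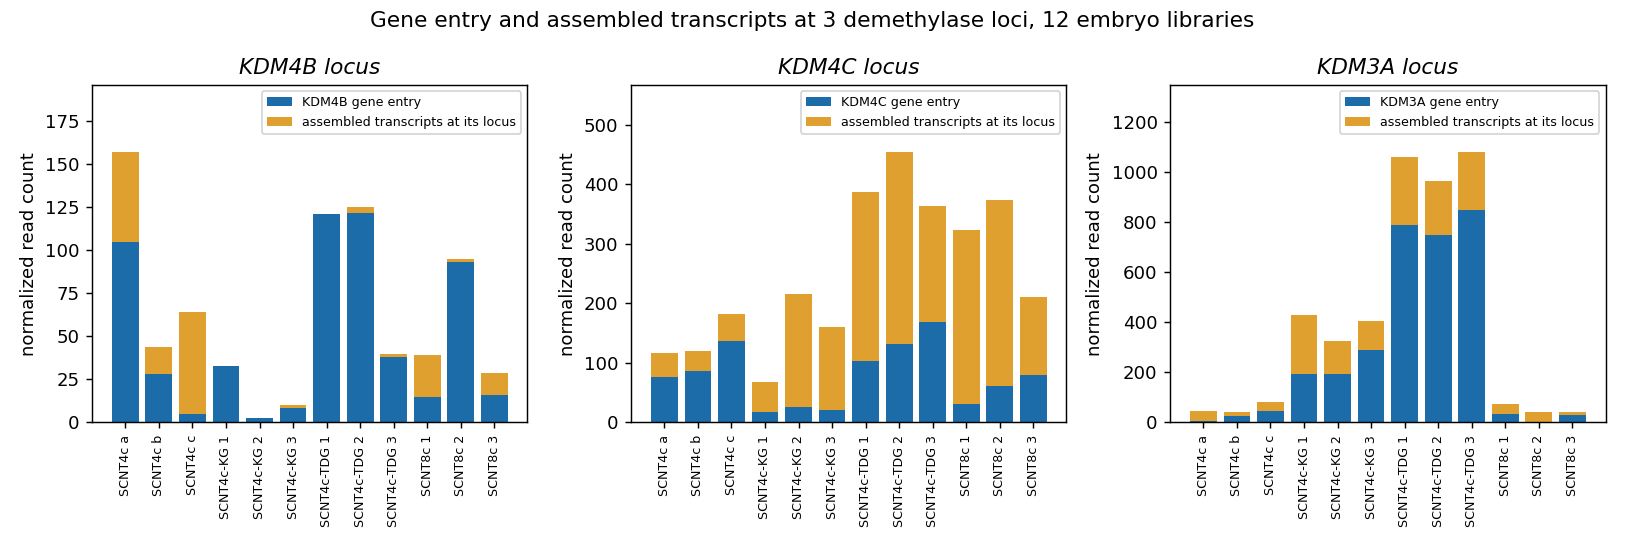
Stacked normalized read counts of the gene entry and of the assembled transcripts at the KDM4B, KDM4C and KDM3A loci in the 12 embryo libraries. At KDM4C most of the bar is the gene entry in SCNT4c and the assembled transcripts in SCNT4c-KG, SCNT4c-TDG and SCNT8c, while at KDM3A both parts are taller in SCNT4c-KG and SCNT4c-TDG.

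SUV39H2 (chr10:46874606-46900058, minus strand, the only entry at its locus), a methyltransferase of the trimethyl mark known from the germ line, had the highest level per exon length among the members in SCNT4c. Its normalized read count was 6972, 7561 and 6923 in SCNT4c and 527, 502 and 369 in PFF, so that the embryos had 15.4 times the level of the donor cells. The log2 difference of SCNT4c from PFF was 3.95 (SE 0.17, adjusted p = 3.61e-06). It was the one member higher in SCNT4c than in PFF. Per kilobase of annotated exon, SUV39H2 stood at 1785 ± 88.7 in SCNT4c, ahead of KDM4A at 38.4 ± 20.3, KDM4C at 20.4 ± 6.75 and SUV39H1 at 16.2 ± 10.1.

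In the treated embryos SUV39H2 was 988, 911 and 1080.1 in SCNT4c-KG and 1979, 2363 and 3103 in SCNT4c-TDG, below every SCNT4c library. The log2 difference was -2.85 (SE 0.41, adjusted p = 9.88e-05) in SCNT4c-KG and -1.55 (SE 0.41, adjusted p = 0.00924) in SCNT4c-TDG. SCNT4c-TDG had more of it than SCNT4c-KG, by 1.30 (SE 0.41, adjusted p = 0.042). That last call was lost when any single library of either group was left out, with adjusted p from 0.071 to 0.156. Per kilobase of exon, KDM4A and SUV39H2 stood at 286 ± 4.92 and 248 ± 21.1 in SCNT4c-KG. In SCNT4c-TDG they stood at 153 ± 38.2 and 619 ± 143. The summed oocyte markers were also lower in both treated groups, as given above, and their part in the SUV39H2 result was not tested.

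SUV39H1 (chrX:42797309-42811457, plus strand), the paralog on the X chromosome, was low in every embryo group. SCNT4c had 114, 56.8 and 31.6, SCNT4c-KG had 70.2, 179 and 115, SCNT4c-TDG had 18.4, 36.8 and 10.7 and SCNT8c had 95.2, 86.5 and 51.8. The fibroblasts had 178, 197 and 198. Neither treated group passed against SCNT4c, with 0.93 (SE 0.67, adjusted p = 0.285, 95% interval -0.50 to 2.36) for SCNT4c-KG and -1.55 (SE 0.67, adjusted p = 0.0859, 95% interval -2.98 to -0.12) for SCNT4c-TDG. Against each other they differed by -2.48 (SE 0.67, adjusted p = 0.0198), SCNT4c-TDG being lower. That call was lost without SCNT4c-KG replicate 2 (adjusted p = 0.0869), without SCNT4c-TDG replicate 1 (adjusted p = 0.0648) or without SCNT4c-TDG replicate 3 (adjusted p = 0.0948).

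Between the treated groups, 3 of 6 genes changed, KDM4C and SUV39H2 being higher and SUV39H1 lower in SCNT4c-TDG, where 16.2% of all features changed (7.07% higher and 9.13% lower). All 6 genes had groups that did not overlap in this comparison, against 44.4% of all features. They include KDM4A, which was injected in SCNT4c-KG only and so is no independent result about the members. In fits of those 6 libraries alone, with or without the replicate number as a block, 5 of 6 were called, KDM3A and KDM4B being added, where 27.5% and 26.5% of all features were called without and with the block. With any single library left out the count was 1 to 2 (9.45% to 13.3% of all features). With a pseudocount of 0.1 (14.2%) or with all features above 0 tested (8.09%) it was 2. The median log2 difference was 1.57 over the 6 genes, the injected KDM4A included, and -0.02 over all features.

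Between the 4-cell and 8-cell stage of untreated embryos, 0 of 6 genes changed by limma, where 5.79% of all features did. That share rests on the libraries and the fit, being 32.3% without SCNT8c replicate 3, 0.164% to 1.23% without any other single library and 0 in a fit of these 6 libraries alone. SUV39H2 was the one with an unadjusted p under 0.05, edgeR and DESeq2 called 0 (with 0 and 1 at an unadjusted p under 0.05), and SUV39H2 was also the 1 of 6 whose groups did not overlap (23.5% of all features). Its normalized read count in SCNT8c was 2192, 1561 and 6715 for replicates 1, 2 and 3, and the third lay just under the SCNT4c range. The log2 difference was -1.33 (SE 0.41, adjusted p = 0.0642, 95% interval -2.20 to -0.45), and -1.95 (adjusted p = 8.21e-05) without replicate 3, the library that resembled SCNT4c. For the other 5 genes the difference lay between -0.83 for KDM4C and 0.35 for SUV39H1. With its assembled transcripts summed, KDM4C went the other way, from 139 ± 36.8 in SCNT4c to 303 ± 83.3 in SCNT8c (log2 difference 1.10, not called). The 95% intervals reached from -1.83 to 0.20 for KDM4A and from -2.47 to 1.21 for KDM3A, so rises of the size measured in the treated groups lay above them.

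Between PFF and SCNT4c, 7 of 10 genes could be tested and all 7 changed, but 78.2% of all features did so too, and 84.5% had groups that did not overlap. The 6 lower genes (38.5% of all features) and the 1 higher gene (39.7%) include TRIM28, described next. The 4 demethylases were lower in SCNT4c, with log2 differences of -6.56 for KDM4B, -4.80 for KDM4A, -3.84 for KDM3A and -2.17 for KDM4C (adjusted p at most 0.00215). SUV39H1 was also lower, at -1.68 (SE 0.47, adjusted p = 0.0154), and this call was lost with edgeR (adjusted p = 0.15), with DESeq2 (adjusted p = 0.168), with equal library totals (adjusted p = 0.0829) and without SCNT4c library b (adjusted p = 0.052). Per kilobase of exon, KDM4A led the members in PFF at 988 ± 24.9, followed by KDM4B at 185 ± 5.54, SUV39H2 at 116 ± 21.1 and KDM4C at 90.0 ± 8.72. Among the same members in SCNT4c, SUV39H2 came first, as given above.

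TRIM28 (chr6:63094382-63101532, plus strand), the corepressor that links KRAB zinc-finger proteins to SETDB1, had 29.3, 14.0 and 26.2 in PFF and was listed at 0 in all 12 embryo libraries. On the scale of the normalized counts, the PFF mean, which rests on 24, 11 and 22 reads, was 9.30 times the level of 3 reads per SCNT4c library. This ratio depends on the scaling, since the summed values of the PFF libraries were larger than those of SCNT4c. TRIM28 entered the test only through PFF and so had to differ. SETDB1 (chr4:98259801-98293238, minus strand) and EHMT2 (chr7:23977683-23992673, minus strand) were listed at 0 in all 15 libraries, fibroblasts included. A listed 0 need not mean that the gene was silent, and 4062 of 28224 known genes (14.4%) were at 0 in all 15. The annotated exons of SETDB1 overlap those of CERS2 on the opposite strand by 704 bases, and the strand setting of the counting is not stated. At the EHMT2 locus, which holds 4 further named genes, an assembled transcript had 347 ± 34.1 in PFF and 75.2 ± 32.1 in SCNT4c, and could not be assigned to one gene. EHMT1, which the reference places on an unplaced scaffold, was not analysed here.

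A further 23 genes of H3K9 methylation were listed as writers with their cofactors, erasers, and readers with their partners, and 22 were in the table (KDM4D had no entry). Against SCNT4c, 4 of 21 tested were higher and 4 lower in SCNT4c-KG, and 4 were higher and 5 lower in SCNT4c-TDG. Over all features 17.6% were higher and 19.6% lower in SCNT4c-KG and 15.7% and 17.6% in SCNT4c-TDG. In both comparisons 2 of the 4 higher genes were ATF7IP and CDYL, which passed the filter only through the groups in which they were high, and 2 of the other 19 were higher without them. The median log2 difference of the 21 listed genes was 0.63 and 0.23, beside the medians over all features given above. Between SCNT4c-TDG and SCNT4c-KG, 3 were higher and 3 lower in SCNT4c-TDG (7.07% and 9.13% of all features, median -0.01, -0.02 over all features). For SCNT8c against SCNT4c it was 0 higher and 1 lower (3.16% of all features, median -0.02, -0.31 over all features), and for SCNT4c against PFF 3 higher and 11 lower of 19 tested (39.7% and 38.5% of all features, median -1.44, 0.07 over all features). Without SCNT8c replicate 3, 8 of these genes changed between SCNT8c and SCNT4c, where 32.3% of all features then did. Of the calls against PFF, ATF7IP2 and JMJD1C (higher) and CDYL and WIZ (lower) entered the test through 1 group only and had to differ. The count and the median against PFF include them, and PPHLN1 was the remaining higher gene.

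**Figure D4:**
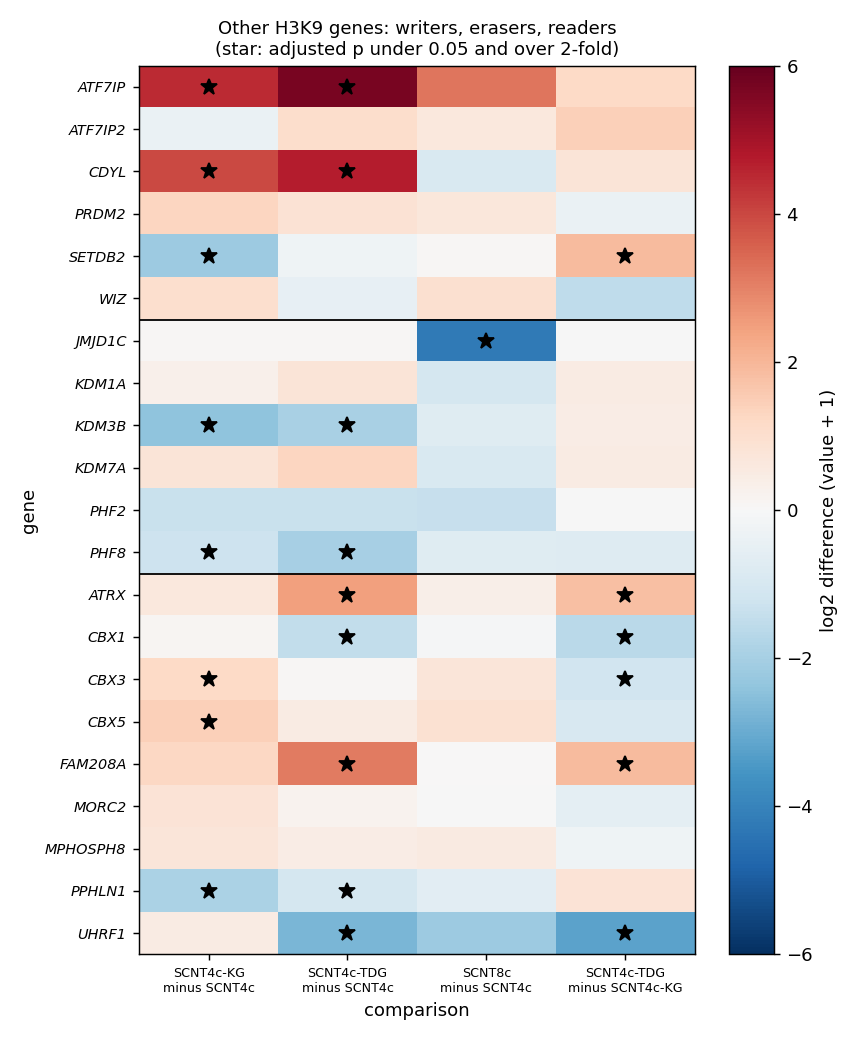
Log2 differences of normalized read count + 1 for 21 further H3K9 genes (rows, in blocks of writers and cofactors, erasers, and readers and partners) in 4 comparisons of embryo groups (columns), with stars where a gene was called changed. ATF7IP and CDYL are higher and KDM3B, PHF8 and PPHLN1 lower in both treated groups against SCNT4c.

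Of the 9 readers and partners, 2 were higher and 1 lower in SCNT4c-KG, and 2 were higher and 3 lower in SCNT4c-TDG, against 17.6% and 19.6% of all features in the first and 15.7% and 17.6% in the second. CBX5 (HP1 alpha) was 3383, 4788 and 4916 in SCNT4c. It reached 11817, 13557 and 9614 in SCNT4c-KG, a log2 difference of 1.42 (SE 0.25, adjusted p = 0.000483). CBX3 (HP1 gamma) was 3323, 2813 and 2733 in SCNT4c with 7194, 7674 and 5701 in SCNT4c-KG, a difference of 1.21 (SE 0.24, adjusted p = 0.00122). With quantile normalization the CBX3 difference shrank to 0.95, under the fold limit. In SCNT4c-TDG neither passed, with 0.48 (SE 0.25, adjusted p = 0.149) for CBX5 and 0.08 (SE 0.24, adjusted p = 0.828) for CBX3. CBX1 (HP1 beta) was lower there, at 337, 383 and 422 against 887, 1129 and 1219 in SCNT4c, a log2 difference of -1.49 (SE 0.29, adjusted p = 0.00117), and in SCNT4c-KG it was 1086, 1471 and 1006 with a difference of 0.13 (SE 0.29, adjusted p = 0.745, 95% interval -0.49 to 0.75).

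SCNT4c-TDG also had more RNA of ATRX, a chromatin remodeler that reads H3K9 methylation in heterochromatin, at 443, 389 and 509 against 64.7, 138 and 58.1, a log2 difference of 2.45 (SE 0.50, adjusted p = 0.00163). FAM208A (TASOR), a subunit of the HUSH silencing complex, was 378, 384 and 403 against 59.2, 49.8 and 27.4, a difference of 3.14 (SE 0.56, adjusted p = 0.000609). PPHLN1 (periphilin), another HUSH subunit, had 15046, 22565 and 24943 in SCNT4c and fell to 5425, 5430.1 and 5664 in SCNT4c-KG, a difference of -1.89 (SE 0.37, adjusted p = 0.00111). In SCNT4c-TDG it was 8275, 9191 and 12089, with -1.07 (SE 0.37, adjusted p = 0.0365), a call that was lost with 5 of the other settings, edgeR and DESeq2 among them, and on leaving out any of 4 of the 6 libraries. UHRF1, which couples H3K9 methylation to maintenance of DNA methylation, was 11.7, 6.14 and 29.8 in SCNT4c-TDG and 67.0, 151 and 78.0 in SCNT4c, a difference of -2.73 (SE 0.96, adjusted p = 0.0392) that was lost with 4 of the other settings, edgeR among them, and on leaving out any of 5 of the 6 libraries (adjusted p up to 0.145).

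Of the 6 writers and cofactors tested, 1 was lower in SCNT4c-KG and 0 in SCNT4c-TDG, and the 2 higher ones in each treated group were ATF7IP and CDYL, so that 0 of the other 4 were higher. Over all features 19.6% were lower and 17.6% higher in SCNT4c-KG, and 17.6% and 15.7% in SCNT4c-TDG. ATF7IP, the partner of SETDB1, was 0, 0 and 11.6 in SCNT4c, 68.6, 71.1 and 27.1 in SCNT4c-KG and 110.4, 126 and 124 in SCNT4c-TDG, and it rose in both treated groups (adjusted p = 0.00515 and 0.00107 by limma). CDYL, a chromodomain cofactor of the EHMT enzymes, was 3.15, 2.62 and 0.83 in SCNT4c, 44.1, 49.5 and 45.6 in SCNT4c-KG and 63.6, 82.1 and 94.1 in SCNT4c-TDG and rose in both (adjusted p = 0.00228 and 0.000695). Both genes averaged under 10 in SCNT4c, at 3.87 for ATF7IP and 2.20 for CDYL, and passed the filter only through the groups in which they were high. Their calls were thus partly fixed by the filter, and the size of the folds is uncertain. SETDB2, a methyltransferase, fell in SCNT4c-KG, from 467 ± 123 to 102 ± 27.8, a log2 difference of -2.19 (SE 0.40, adjusted p = 0.000642). Of the 6 further erasers tested, 2 were lower and 0 higher in each treated group, where 19.6% (SCNT4c-KG) and 17.6% (SCNT4c-TDG) of all features were lower. KDM3B, the close relative of KDM3A, fell in both treated groups, from 1028 ± 455 in SCNT4c to 183 ± 45.8 in SCNT4c-KG and 248 ± 5.53 in SCNT4c-TDG (adjusted p = 0.000262 and 0.00145), opposite to KDM3A. PHF8, a demethylase of the lower methyl states, stood at 1246 ± 201, 534 ± 144 and 308 ± 36.4 in these groups and fell in both (adjusted p = 0.0129 and 0.000563), though without SCNT4c-KG replicate 2 the first call was lost (adjusted p = 0.0624).

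JMJD1C, also of the KDM3 family, was the 1 listed gene that changed between SCNT4c and SCNT8c, from 62.3, 63.8 and 43.2 to 1.87, 3.33 and 1.06, a log2 difference of -4.26 (SE 0.73, adjusted p = 0.0152). It averaged 2.08 in SCNT8c and passed the filter only through the groups in which it was high, so the call was partly fixed by the filter and the size of the difference is uncertain. The call was lost without SCNT4c library b (adjusted p = 0.0617), without SCNT8c replicate 1 (adjusted p = 0.0523) and in a fit of these 6 libraries alone (adjusted p = 0.198). Against PFF the listed genes that changed in SCNT4c were SETDB2, ATF7IP2, WIZ, CDYL, KDM3B, JMJD1C, KDM1A, PHF2, CBX5, MPHOSPH8, FAM208A, PPHLN1, MORC2 and ATRX, of which ATF7IP2, JMJD1C and PPHLN1 were higher. Their log2 differences ran from -6.76 for CDYL to 6.10 for ATF7IP2, a cofactor of the SETDB1 complex known from the germ line. CDYL and WIZ averaged under 10 in SCNT4c and ATF7IP2 and JMJD1C under 10 in PFF, so that, like TRIM28, these 4 entered the test through 1 group only and had to differ. The falls of SETDB2, KDM3B and CBX5 did not pass with DESeq2 or edgeR, with log2 differences of -0.64, -0.56 and -0.50 by DESeq2. CBX3 and PHF8 were not called, at 0.83 (SE 0.12, adjusted p = 0.000703) and 0.35 (SE 0.16, adjusted p = 0.0772), but were called higher in SCNT4c with edgeR, DESeq2 and quantile normalization, with log2 differences up to 1.62 and 1.28.

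Over the 12 embryo libraries, the genes whose log2 values followed each member most closely were found among 5466 named genes with a mean of at least 100. For KDM3A they were KIAA1841 (r = 0.98), C4H8orf46 (r = 0.97) and XRN1 (r = 0.96). For KDM4A they were RB1CC1 (r = 0.98), HNRNPL (r = 0.97) and ARG2 (r = 0.97). For KDM4C they were HIF1A (r = 0.95), CCDC88A (r = 0.94) and CD2AP (r = 0.94). For SUV39H1 they included PIM2 (r = 0.93) and MANBAL (r = 0.91), and for SUV39H2 they were KCTD3 (r = 0.99), KCNH7 (r = 0.98) and TOP2B (r = 0.98). KCTD3, the closest to SUV39H2, averaged 1929 in SCNT4c, 214 in SCNT4c-KG, 553 in SCNT4c-TDG and 848 in SCNT8c. These correlations describe 12 libraries that fall into 4 groups and share their depth and processing, and the closest genes were picked for high values.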

How the data were processed

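Per the study's methods, the authors trimmed the paired-end reads (Trimmomatic 0.39), mapped them to the pig genome Sscrofa11.1 (STAR 2.5.3a) and kept unique alignments. Transcripts were assembled by StringTie 2.1.2 and features counted by HTSeq, whose strand setting and overlap mode are not given in the sources used here. The deposited signal values are normalized read counts, reads divided by 1 factor per library whose source is not stated. In every library 100.0% of values were whole multiples (within 0.01) of the smallest value, so whole reads were recovered. Of 43535 entries, 241 repeated ones were dropped, leaving 28224 known genes and 15070 assembled transcripts.

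Testing used limma 3.58.1 with a trend on log2(value + 1) for features with a mean of at least 10 in the fit, with Benjamini-Hochberg adjustment over all of them. edgeR 4.0.16 (which called 5831 features in SCNT4c-KG against SCNT4c, limma 7054) and DESeq2 1.42.0 ran on the whole reads in R 4.3.3. Scripts were tested on simulated data. Gene places, exon lengths and upstream sequences came from the RefSeq annotation of Sscrofa11.1, in which 99.7% of known genes lay inside the locus the table gives. Named were the 10 members, CBX1, CBX3, CBX5 and listed genes past the threshold, and the 3 genes most like each member with an embryo mean of at least 50, of which 1 is not reported here. Members and lists were chosen with earlier results of these data known. Replicate numbers were not used to pair libraries: deviations of same-numbered libraries correlated at -0.06 to 0.19. No 2 libraries agreed within sampling noise.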

Additional observations from a re-analysis of the deposited data

Results flagged for a closer look

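The effects of the KDM4A with GSK126 treatment and of TDG induction, both against SCNT4c, differed from each other by the limma test of SCNT4c-TDG against SCNT4c-KG for 3 of the 6 members tested, where 16.2% of all features were called. The log2 difference was 2.60 (adjusted p = 0.0057) for KDM4C (1.58 with its whole locus counted), -2.48 (adjusted p = 0.0198) for SUV39H1 and 1.30 (adjusted p = 0.042) for SUV39H2. With 1 library left out the count was 1 to 2 (9.45% to 13.3% of all features), the SUV39H2 call being lost with any of the 6 libraries left out and the SUV39H1 call with any of 3. Among the further H3K9 genes it was 1.92 (adjusted p = 0.00435) for SETDB2, -1.63 (adjusted p = 0.00173) for CBX1, -1.13 (adjusted p = 0.00494) for CBX3, 1.91 (adjusted p = 0.0297) for FAM208A, -3.21 (adjusted p = 0.0329) for UHRF1 and 1.82 (adjusted p = 0.0214) for ATRX. The CBX3 difference was under 2-fold with quantile normalization, equal library totals, edgeR and DESeq2. Leaving out 1 library took the adjusted p of FAM208A up to 0.101, of UHRF1 up to 0.136 and of ATRX up to 0.0994.

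At the KDM4C locus in SCNT4c-TDG and at the KDM3A locus in both treated groups, assembled transcripts without a gene name lay above every SCNT4c library. At the KDM4C locus the more abundant one averaged 251 in SCNT4c-TDG against at most 42.3 in SCNT4c, and the other 16.1 against at most 2.49. At the KDM3A locus one averaged 162 in SCNT4c-KG and 238 in SCNT4c-TDG against at most 40.2 in SCNT4c.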

How the results depend on the processing

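The 10 members gave 31 tested differences, recomputed 525 times; 496 kept their direction and side of the threshold or stayed uncalled, 16 lost the call, 13 gained it and 0 reversed. Of those that moved, 20 were in SCNT4c-TDG against SCNT4c-KG, where the count of changed members, 3, became 5 with DESeq2, 5 with loci summed (8 members tested), 5 with only those groups fitted, 5 with the replicate block added to that fit, 4 with a pseudocount of 10, 2 with a pseudocount of 0.1, 2 with all features above 0 tested and 1 to 2 with 1 library left out. The share of all features called was 16.2% in the main fit. In the order of these settings it was 20.9%, 16.2%, 27.5%, 26.5%, 19.2%, 14.2%, 8.09% and 9.45% to 13.3%. For SCNT8c against SCNT4c the count of 0 became 1 with a minimum mean of 50 and 0 to 1 with 1 library left out, the 1 being SUV39H2 each time, in the second case without SCNT8c replicate 3. The members changed in SCNT4c-KG and SCNT4c-TDG against SCNT4c stayed at 4 and 3 with any library left out, and those against PFF at 6 to 7. With loci summed they were 4 of 8 tested in SCNT4c-KG (37.2% of all features), 4 of 8 in SCNT4c-TDG (33.3%) and 8 of 9 against PFF (78.2%). In SCNT4c-KG the KDM4C call was then lost and KDM4B was called. The 22 further genes, whose alternatives were added after seeing the data, changed in 1 case between SCNT8c and SCNT4c, but 0 with a minimum mean of 50, 2 with quantile normalization, 3 with DESeq2, 2 with no fold limit, 0 with only those groups fitted and 0 to 8 with 1 library left out. Between SCNT4c-TDG and SCNT4c-KG 6 of them changed, 3 to 7 with 1 library left out. With TDG they gave 1829 recomputed values, of which 52 lost a call, 40 gained one and 0 reversed. The cause of these moves was not tested.

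Scaling moved the median log2 difference over all features from 0.07 to 1.01 (DESeq2) for SCNT4c against PFF and from -0.31 to 0.07 for SCNT8c against SCNT4c, and, with equal totals, from -0.26 to 0.0026 and from -0.02 to 0.32 for SCNT4c-TDG against SCNT4c and SCNT4c-KG. The share of calls that were higher went from 45.3% to 79.5% (edgeR), 71.8% (DESeq2) and 57.0% (quantile) for SCNT8c, and from 43.6% to 63.8% (equal totals) for SCNT4c-TDG against SCNT4c-KG. With 3 libraries a group an exact permutation test could not go below 0.1. Among the 6 members tested between embryo groups, KDM4B and KDM3A rest on the fewest reads, with under 10 reads in some libraries of SCNT4c and SCNT4c-KG (KDM4B) or of SCNT4c and SCNT8c (KDM3A).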
